A study of Mus musculus with 8 samples.

Results

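Regulators of the G1 phase of the cell cycle were examined in E15.5 mouse ventricles. They were the D-type cyclin genes Ccnd1, Ccnd2 and Ccnd3, the cyclin-dependent kinase (CDK) genes Cdk4 and Cdk6, the CDK inhibitor genes Cdkn1a, Cdkn1b and Cdkn2c, the retinoblastoma gene Rb1 and the homeobox gene Meis1. They were taken by symbol, and are 10 of the 53465 genes in the deposited table, each with 1 Ensembl identifier. RNA-seq was performed on heart ventricles from 4 WT libraries and from 4 libraries labelled Nrg-1flox;Cdh5-CreERT2, called the libraries labelled Flox here, with 1 ventricle per library according to the series. In that line Cre recombinase, under an endothelial (Cdh5) driver and activated by tamoxifen, is meant to delete Nrg1, which encodes the growth factor neuregulin-1. The dose and day of tamoxifen, the strain, and whether the WT embryos carried Cre or received tamoxifen are not given in the sources used here. The comparison asks how these genes differ in ventricles labelled as lacking endothelial Nrg1. The deposited values are expected counts, which are estimates that divide a read matching several genes between them. CPM below express these counts relative to the size of each library, after scaling with trimmed mean of M-values (TMM) factors.

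D-type cyclins bind CDK4 and CDK6, and the complexes phosphorylate the RB1 protein, which releases E2F transcription factors and lets the cell enter S phase. The INK4 protein p18 (Cdkn2c) binds CDK4 and CDK6 directly, whereas the CIP/KIP proteins p21 (Cdkn1a) and p27 (Cdkn1b) act on cyclin-CDK complexes more widely. Fetal cardiomyocytes divide, and they leave the cell cycle after birth. MEIS1 is known as a restraint on cardiomyocyte division around birth.

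Library totals lay between 16761763 and 24144272 expected counts. The targeted gene was not lower where it should be. Nrg1 was at 5.46, 4.64, 4.08 and 5.31 CPM across WT libraries 1 to 4. In libraries 1 to 4 labelled Flox it was at 6.82, 6.33, 6.16 and 5.36 CPM. Its log2 fold change was 0.34, with an interval of 0.08 to 0.60 that lies above 0. Nrg1 was not called (FDR 0.311), and the groups overlapped. Over 18 alternatives its log2 fold change ran from 0.27 to 0.40, with FDR from 0.181 to 0.566. Gene-level counts do not separate cell types or exons, and why Nrg1 was not lower was not tested. Every direction below rests on the labels alone. The ventricular cardiomyocyte markers (7 of 7 tested) summed to 41181 to 44538 CPM in WT and 40601 to 45361 CPM in the libraries labelled Flox, while the 5 hepatocyte markers summed to at most 1.96 CPM in any library. The 8 endothelial markers summed to 1073 to 1101 CPM in WT and 999.78 to 1068 CPM in the libraries labelled Flox, so the sums did not overlap. None of the 8 was called, while 6 had an unadjusted p below 0.05 (10.5% of all tested genes), of which Emcn was higher (0.18). Kdr (-0.17), Tie1 (-0.17), Erg (-0.19) and Esam (-0.15) were lower without overlap (2.98% of all tested genes). Their FDR was 0.0584 to 0.121, and Kdr, Tie1 and Esam passed in some alternatives (lowest FDR 0.00369, 0.0130 and 0.0283, highest 0.369, 0.483 and 0.204, over 18 each). Cdh5, the gene of the driver, was at 0.00784 (FDR 0.967) and Tek at -0.03 (FDR 0.887). Pecam1 was at -0.09 (FDR 0.357), and the groups overlapped for all of Cdh5, Tek and Pecam1. Among other marker lists, the log2 fold change was below 0 in 6 of 6 atrial and 5 of 6 mural and smooth muscle markers. None of these was called, and their sums overlapped between the groups. An unadjusted p below 0.05 was found for 2 atrial and 3 mural markers, of which Acta2 was higher (0.12). The part of these differences in the members' values was not tested. Although each library is 1 ventricle by the series, 7 of 8 held over 20 counts both of Xist, transcribed in female cells, and of 4 summed Y-linked genes (Ddx3y, Eif2s3y, Kdm5d, Uty). The Y-linked sum was 115, 69.3, 122 and 171 CPM in WT libraries 1 to 4 and 68.3, 42.9, 58.5 and 119.9 CPM in libraries 1 to 4 labelled Flox.

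None of the 10 members passed a false discovery rate (FDR) of 0.05 in edgeR's quasi-likelihood test, where 0.526% of the 15388 tested genes did (81 genes, 0.312% higher and 0.214% lower). At an FDR of 0.1, 0 members and 1.23% of all tested genes passed. The 10 members all passed the filter on low counts. With 1 of 10 at an unadjusted p below 0.05, against 10.5% of all tested genes, the members stood near the background. DESeq2 and limma voom also called 0 of 10. The log2 fold change was above 0 for 7 members and below 0 for 3. Its median was 0.02 over the members and -0.0012 over all tested genes. The median size of the log2 fold change was 0.049 for the members, against 0.037 for the 7878 genes with a mean of at least 20 CPM, the level that all members exceeded. No member's 95% interval reached beyond 0.28 on the log2 scale in either direction. In bulk ventricles, fewer cells of a type and less RNA per cell cannot be told apart.

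**Figure D1:**
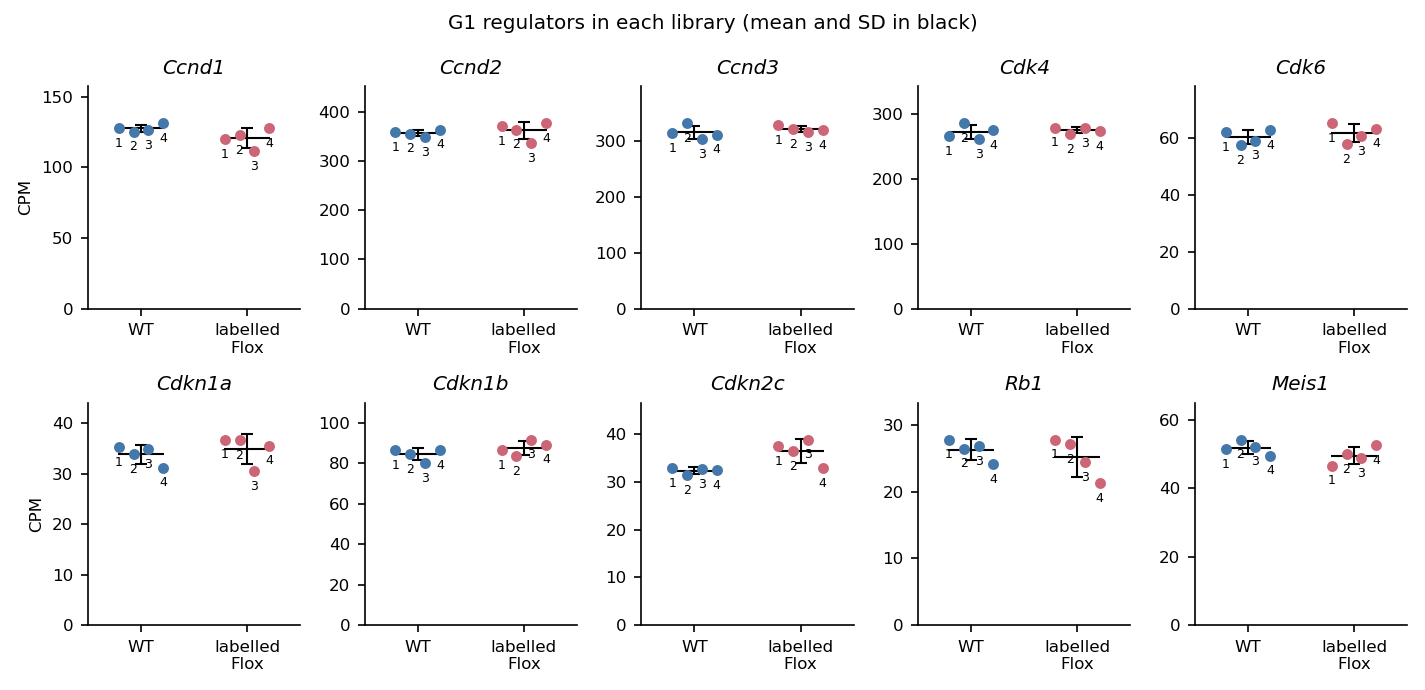
Level of each member in CPM (vertical axes from 0) in the 4 WT libraries (blue) and the 4 libraries labelled Flox (red), numbered by library, with the mean and SD in black. The groups overlap in 9 of 10 members, and Cdkn2c in WT lies between 31.4 and 32.9 CPM.

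The D-type cyclins were examined first. Ccnd1 (GRCm38, ENSMUSG00000070348, chromosome 7, 144929931 to 144939925, minus strand) was at 128, 125, 126 and 131 CPM across WT libraries 1 to 4 and at 119.8, 123, 111 and 128 CPM in libraries 1 to 4 labelled Flox. Libraries 1, 2 and 3 labelled Flox lay below every WT library, while library 4 lay within the WT range, so the groups overlapped. The means were 128 ± 2.60 CPM on average in WT and 120.5 ± 6.99 CPM in the libraries labelled Flox (SD, n = 4), giving a log2 fold change of -0.08 (SE 0.0404, 95% interval -0.17 to 0.00362, edgeR's adjusted p = 0.501). The opposite-strand gene LTO1, as the annotation spells it, shares 23.4% of the exonic bases of Ccnd1, with a log2 fold change of -0.01. All members but Cdkn1b and Cdkn2c share some exonic bases with another annotated gene. The libraries are directional, but whether counting used the strand is not given in the sources used here, and without it reads over shared bases cannot be told apart.

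Ccnd2 (ENSMUSG00000000184, chromosome 6, 127125162 to 127152193, minus strand) ranged over 349 to 364 CPM in WT and 337 to 377 CPM in the libraries labelled Flox. The highest and the lowest of its 8 values were both in the group labelled Flox, in libraries 4 and 3. The log2 fold change of 0.02 (SE 0.0373, 95% interval -0.06 to 0.10, edgeR's adjusted p = 0.899) leaves a difference of more than 4.00% lower or 7.39% higher outside its interval. Ccnd3 (ENSMUSG00000034165, chromosome 17, 47505051 to 47599691, plus strand) ranged over 304 to 332 CPM in WT and 317 to 329 CPM in the libraries labelled Flox, with a log2 fold change of 0.03 (SE 0.0335, 95% interval -0.04 to 0.10, edgeR's adjusted p = 0.850). Its WT library 2 was the highest of the 8 and WT library 3 the lowest, so that the WT range enclosed that of the other group.

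Levels of different genes were compared per kilobase of exonic sequence, taken as the union of a gene's exons. Ccnd2 was at 37.9 ± 0.659 CPM per kilobase in WT and 38.5 ± 1.91 in the libraries labelled Flox (SD, n = 4), and Ccnd3 was at 36.0 ± 1.36 CPM per kilobase in WT and 36.7 ± 0.587 in the libraries labelled Flox. The ranges of these genes over the 8 libraries overlapped. Ccnd1 was lower than both in every library, at 27.1 ± 0.553 CPM per kilobase in WT and 25.6 ± 1.48 in the libraries labelled Flox. Its share of the summed D-type cyclin level per kilobase was 26.8 ± 0.603% in WT and 25.4 ± 0.703% in the libraries labelled Flox (SD, n = 4), a description with no test. The order depended on the length used. Ccnd3 has 21 annotated transcripts, and when the length of its principal transcript (2113 bases in place of 8775) was used, an alternative added after seeing the data, Ccnd3 came first at 149 ± 5.67 CPM per kilobase in WT and 152 ± 2.44 in the libraries labelled Flox. Ccnd2 was then at 56.3 ± 0.979 CPM per kilobase in WT and 57.2 ± 2.84 in the libraries labelled Flox, and Ccnd1 stayed the lowest of the D-type cyclins at 34.1 ± 0.696 CPM per kilobase in WT and 32.2 ± 1.87 in the libraries labelled Flox.

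The kinases that D-type cyclins activate differed from each other far more than either did between the groups. Cdk4 (ENSMUSG00000006728, chromosome 10, 127063534 to 127067920, plus strand) was at 83.5 ± 3.42 CPM per kilobase in WT and 84.5 ± 1.35 in the libraries labelled Flox, and Cdk6 (ENSMUSG00000040274, chromosome 5, 3341485 to 3531008, plus strand) was at 4.32 ± 0.178 CPM per kilobase in WT and 4.42 ± 0.231 in the libraries labelled Flox (SD, n = 4). Cdk4 made up 94.8% to 95.5% of their sum in every library, and 96.0% to 96.5% with principal transcript lengths. In CPM, Cdk4 ranged over 260.4 to 286 CPM in WT and 269 to 278 CPM in the libraries labelled Flox, with a log2 fold change of 0.02 (SE 0.0346, 95% interval -0.06 to 0.09, edgeR's adjusted p = 0.924). Cdk6 ranged over 57.5 to 62.7 CPM in WT and 57.9 to 65.3 CPM in the libraries labelled Flox, with a log2 fold change of 0.03 (SE 0.0430, 95% interval -0.06 to 0.12, edgeR's adjusted p = 0.873). For Cdk4 the WT range enclosed that of the other group, and for Cdk6 the ranges overlapped. The opposite-strand gene Tspan31 shares 19.7% of the exonic bases of Cdk4 and held 19.1% as many counts, with a log2 fold change of -0.00044.

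**Figure D2:**
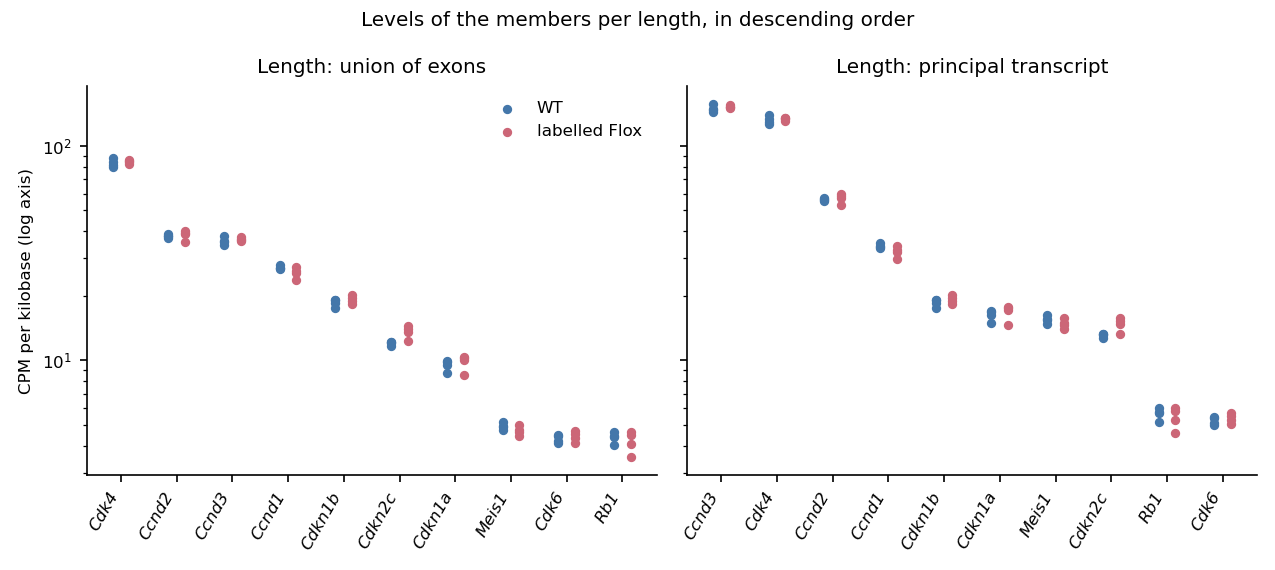
CPM per kilobase (log axis) of the 10 members in each WT library (blue) and each library labelled Flox (red), in descending order of the mean, with the union of exons (left) or the principal transcript (right) as the length. Cdk4 leads on the left and Ccnd3 on the right, and Cdk6 and Rb1 are the lowest on the right.

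Among the inhibitors, Cdkn2c (ENSMUSG00000028551, chromosome 4, 109660876 to 109667189, minus strand) had the smallest p of the members (0.00385, rank 340 of 15388). It was at 32.9, 31.4, 32.7 and 32.5 CPM across WT libraries 1 to 4 and at 37.6, 36.5, 38.9 and 33.0 CPM in libraries 1 to 4 labelled Flox. Every library labelled Flox lay above every WT library, but library 4 of that group was at 32.96 CPM where WT library 1 was at 32.88. Groups did not overlap in 6.05% of all tested genes (3.07% higher and 2.98% lower), and Cdkn2c was the 1 such gene of the 10 members. The means were 32.4 ± 0.668 CPM on average in WT and 36.5 ± 2.54 CPM in the libraries labelled Flox (SD, n = 4), giving a log2 fold change of 0.17 (SE 0.0496, 95% interval 0.07 to 0.28, edgeR's adjusted p = 0.174). In percent, the estimate was 12.9% higher, with an interval of 4.79% to 21.6%. Without library 4 labelled Flox, the log2 fold change was 0.22 and passed (FDR 0.0425). With the summed Y-linked level added to the fit it was 0.14 (FDR 0.504), and these are the lowest and highest FDR of its 18 alternatives. The WT libraries lay closer together than counting error alone gives on average, with a coefficient of variation (CV) of 2.06% against 3.70% from the mean count. In the group labelled Flox the CV was 6.97% against 3.65%. Cdkn2c shares no exonic bases with another annotated gene, and its counts were whole in every library.

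The CIP/KIP genes showed no such separation. Cdkn1b (ENSMUSG00000003031, chromosome 6, 134920401 to 134925513, plus strand) was at 86.7, 84.7, 80.2 and 86.7 CPM across WT libraries 1 to 4 and at 86.6, 83.8, 91.8 and 89.3 CPM in libraries 1 to 4 labelled Flox. Libraries 3 and 4 labelled Flox were the highest of the 8, and the other two lay within the WT range. The log2 fold change of 0.06 (SE 0.0368, 95% interval -0.02 to 0.13, edgeR's adjusted p = 0.653) had an interval that spans 0. Cdkn1a (ENSMUSG00000023067, chromosome 17, 29090976 to 29100727, plus strand) ranged over 31.2 to 35.2 CPM in WT and 30.5 to 36.8 CPM in the libraries labelled Flox, with a log2 fold change of 0.04 (SE 0.0615, 95% interval -0.09 to 0.18, edgeR's adjusted p = 0.876). Its lowest value was in library 3 labelled Flox, at 30.5 CPM, where Cdkn1b and Cdkn2c were at their highest. Relative to length, Cdkn1b was at 18.6 ± 0.674 CPM per kilobase in WT and 19.3 ± 0.759 in the libraries labelled Flox, and Cdkn1a was at 9.51 ± 0.516 CPM per kilobase in WT and 9.81 ± 0.8287 in the libraries labelled Flox (SD, n = 4). Cdkn2c was at 12.1 ± 0.249 CPM per kilobase in WT and 13.6 ± 0.947 in the libraries labelled Flox, between them. With the union of exons these inhibitors did not overlap one another over the 8 libraries, while with principal transcripts Cdkn1b overlapped Cdkn1a, and Meis1 lay between Cdkn1a and Cdkn2c.

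Rb1 (ENSMUSG00000022105, chromosome 14, 73183673 to 73325822, minus strand), the pocket protein gene that these kinases act on, was at 27.8, 26.4, 26.9 and 24.2 CPM across WT libraries 1 to 4 and at 27.8, 27.1, 24.4 and 21.2 CPM in libraries 1 to 4 labelled Flox. Library 4 was the lowest in each group, and the groups overlapped. The means were 26.3 ± 1.54 CPM on average in WT and 25.2 ± 2.99 CPM in the libraries labelled Flox (SD, n = 4), giving a log2 fold change of -0.06 (SE 0.0759, 95% interval -0.22 to 0.11, edgeR's adjusted p = 0.859). Its CV over the 8 libraries, 8.88%, was the highest of the members, where the median of genes at 20 CPM or more was 4.37%. Library 4 also had the highest Y-linked sum of each group and, in the group labelled Flox, the highest sum of the 7 erythroid markers (9974 CPM, against 5848 to 6861 CPM in the other 3) and of the 6 macrophage markers (138 CPM, against 94.6 to 112 CPM). In WT the erythroid sum was highest in library 3. With the Y-linked sum in the fit, the log2 fold change of Rb1 was -0.19 (FDR 0.502, range 0.502 to 0.999 over 18 alternatives), and without library 4 labelled Flox it was 0.00818. Of these lists, 6 of 7 erythroid and 6 of 6 macrophage markers had a log2 fold change above 0, with 0 called. The part of these markers in the results was not tested. Rb1 encloses or overlaps the opposite-strand genes Lpar6 and Rcbtb2, which share 6.78% and 8.11% of its exonic bases, and Rcbtb2 held 238% as many counts, with log2 fold changes of -0.04 and 0.01.

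**Figure D3:**
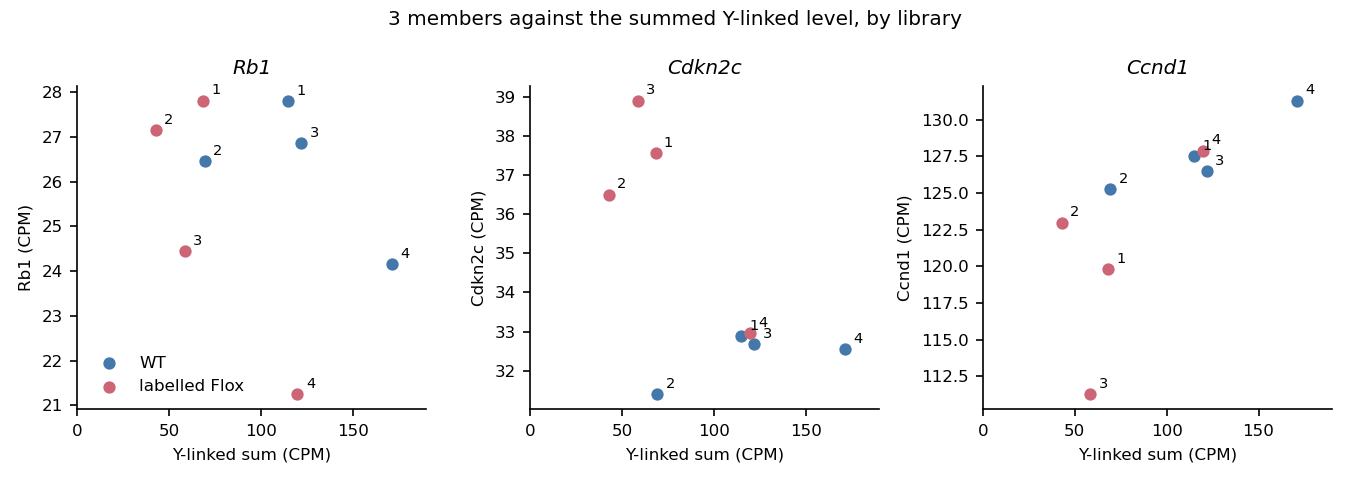
CPM of Rb1, Cdkn2c and Ccnd1 (vertical axes, which do not start at 0) against the summed CPM of the 4 Y-linked genes, in WT libraries (blue) and libraries labelled Flox (red), numbered. Library 4 labelled Flox, at 119.9 CPM of Y-linked genes, lies beside the WT libraries for Cdkn2c and Ccnd1 and is the lowest of all for Rb1.

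The same library was the nearest of its group to WT for Ccnd1 and Cdkn2c, at 128 and 33.0 CPM. With the Y-linked covariate the log2 fold change of Ccnd1 was -0.04 (FDR 0.845), and without that library it was -0.11 (FDR 0.224, range 0.224 to 0.845 over 18 alternatives). Cdk6 went from 0.03 to 0.10 with the covariate (FDR 0.504, range 0.504 to 0.999 over 18 alternatives).

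Meis1 (ENSMUSG00000020160, chromosome 11, 18879817 to 19018985, minus strand) was at 51.6, 54.3, 52.2 and 49.6 CPM across WT libraries 1 to 4 and at 46.7, 50.002, 48.8 and 52.6 CPM in libraries 1 to 4 labelled Flox. Libraries 1 and 3 labelled Flox lay below the WT range, and library 4 lay inside it. The means were 51.9 ± 1.93 CPM on average in WT and 49.5 ± 2.46 CPM in the libraries labelled Flox (SD, n = 4), giving a log2 fold change of -0.07 (SE 0.0420, 95% interval -0.16 to 0.02, edgeR's adjusted p = 0.612). Relative to the union of exons, Meis1, Cdk6 and Rb1 were the lowest members, in that order, and each overlapped the next. Meis1 was at 4.93 ± 0.183 CPM per kilobase in WT and 4.70 ± 0.234 in the libraries labelled Flox, and Rb1 was at 4.37 ± 0.257 CPM per kilobase in WT and 4.18 ± 0.496 in the libraries labelled Flox (SD, n = 4).

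**Figure D4:**
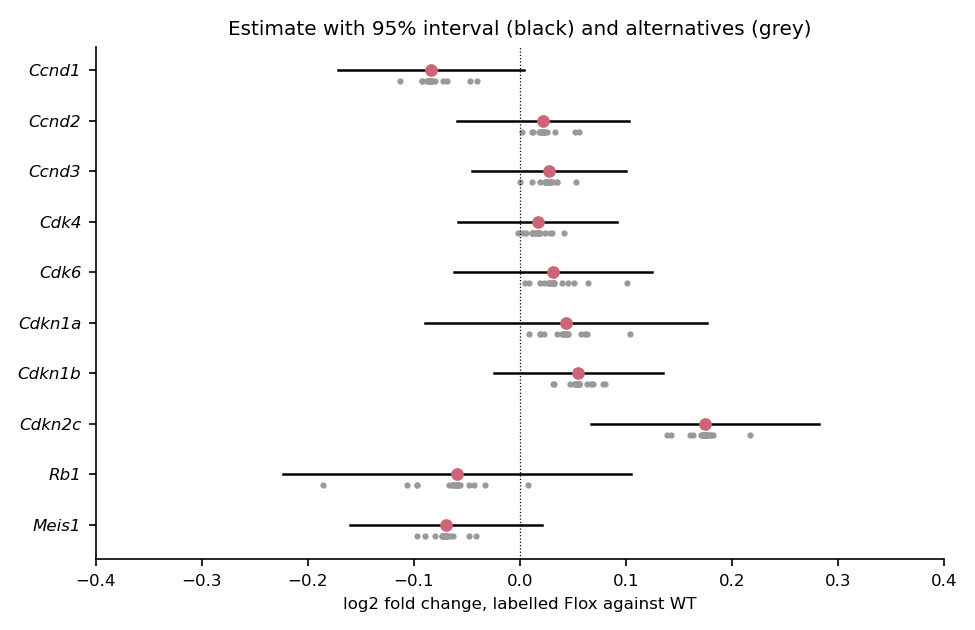
Log2 fold change of each member, labelled Flox against WT (red points), with its 95% interval (black) and the estimates under the alternatives (grey). The interval of Cdkn2c alone lies above 0, from 0.07 to 0.28, and the other 9 span 0.

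The genes around the members were taken from 8 lists of the G1 and S phase pathway, with 55 genes of which 52 were tested. None was called, against 0.526% of all tested genes, and 5 had an unadjusted p below 0.05, against 10.5%. The groups did not overlap in 5, all higher in the libraries labelled Flox, which is 9.62% of the 52. Over all tested genes it was 6.05%, or 3.07% for higher alone, and the shares are a description with no test. The log2 fold change was above 0 in 34 of the 52 and in 49.4% of all tested genes, with medians of 0.02 and -0.0012. Mycn, a MYC family transcription factor of the embryonic heart, had the lowest FDR. It was at 37.6, 37.6, 33.2 and 37.6 CPM across WT libraries 1 to 4 and at 40.7, 39.6, 42.6 and 44.3 CPM in libraries 1 to 4 labelled Flox, with a log2 fold change of 0.20 (SE 0.0510, 95% interval 0.08 to 0.31, edgeR's adjusted p = 0.134). The groups did not overlap, and with no filter on low counts Mycn passed (FDR 0.0292, range 0.0292 to 0.336 over 18 alternatives). Foxo1, a forkhead factor that restrains division, had the lowest log2 fold change of the upstream factors at -0.14 (FDR 0.298), and passed without library 4 labelled Flox (-0.19, FDR 0.0499, range 0.0499 to 0.675 over 18 alternatives).

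Of cyclin E, cyclin A and CDK2, which act after the D-type cyclins, Cdk2 was at 79.2 ± 4.11 CPM on average in WT and 87.0 ± 3.58 CPM in the libraries labelled Flox (SD, n = 4), giving a log2 fold change of 0.14 (SE 0.0413, 95% interval 0.05 to 0.22, edgeR's adjusted p = 0.221). The groups overlapped for Cdk2, and with the Y-linked covariate it was at 0.07 (FDR 0.653, range 0.0997 to 0.653 over 18 alternatives). Ccne1, a cyclin partner of CDK2, was at -0.05 (FDR 0.876). Of the other inhibitors, Cdkn1c (p57), an imprinted CIP/KIP gene, was at 296 ± 20.1 CPM on average in WT and 318 ± 29.2 CPM in the libraries labelled Flox (SD, n = 4), giving a log2 fold change of 0.10 (SE 0.0620, 95% interval -0.03 to 0.24, edgeR's adjusted p = 0.614). Cdkn2d (p19) was the lowest of these in log2 fold change at 0.07 (FDR 0.662). Cdkn2b held 4 to 12 expected counts per library, and Cdkn2a, which was not tested, held at most 3.

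The 12 other pocket protein, E2F and DP genes had a median log2 fold change of 0.03. Among them E2f2, an E2F activator, was highest at 0.12 (FDR 0.612) and E2f4, a repressor that binds the pocket proteins, was lowest at -0.05 (FDR 0.797). The groups did not overlap for Rbl1 (0.06), which encodes the pocket protein p107, and Tfdp2 (0.11), a dimer partner of E2F, and these were named after their values were seen, as were Lin54 and Dyrk1a next. Of the MuvB and DREAM genes, whose complex represses cell cycle genes, Lin54 was highest at 0.12 (FDR 0.378) and Rbbp4 lowest at -0.02. The groups did not overlap for Lin54 and for Dyrk1a (0.06), the kinase that assembles DREAM. The CDK-activating and assembly genes lay between 0.00425 (Cdc37, a chaperone partner) and 0.06 (Cdk7), and the turnover genes between -0.05 (Skp1a) and 0.07 (Cks1b).

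Of the MEIS and PBX genes, whose products bind DNA together, 7 of 9 were tested, and 5 of the 7 had a log2 fold change below 0, as Meis1 did. Pknox1 was lowest at -0.09 (FDR 0.670) and Pbx3 highest at 0.03 (FDR 0.866). Pbx4 and Hoxb13 did not pass the filter, and Hoxb13 was at 0 in every library.

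**Figure D5:**
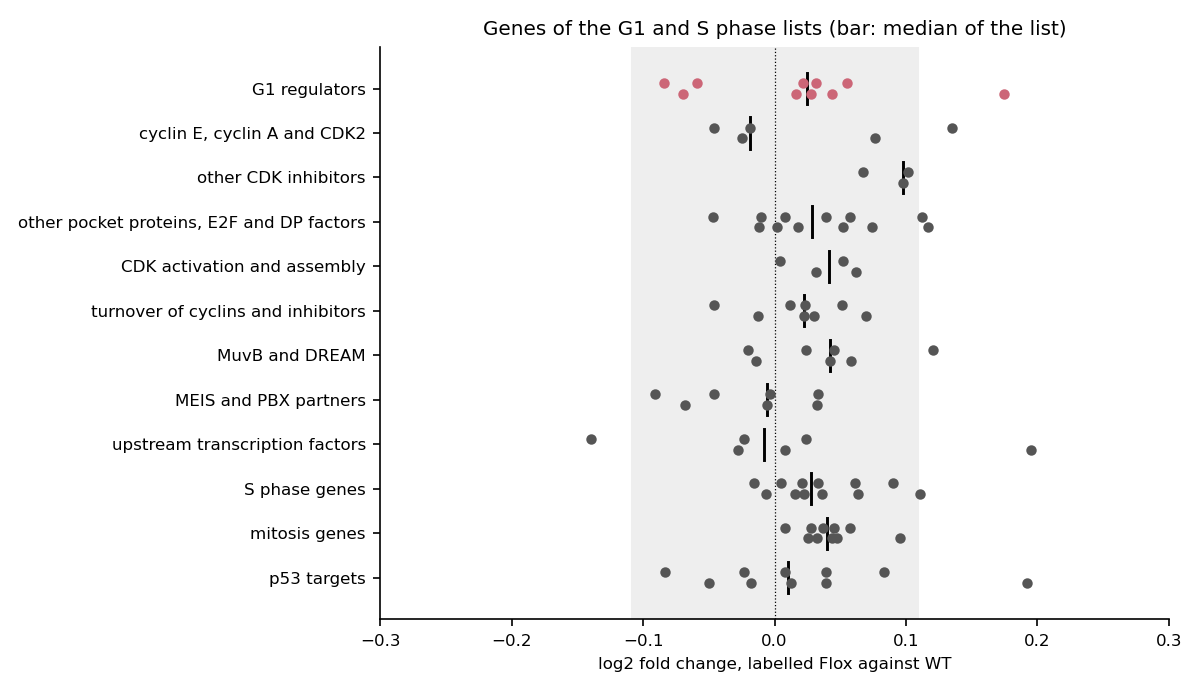
Log2 fold change, labelled Flox against WT, of each tested gene in the members (red) and in the pathway and readout lists (grey), with the median of each list as a bar. The shaded band runs from the 5th to the 95th percentile of genes at 20 CPM or more (-0.11 to 0.11), and Cdkn2c is the only member outside it.

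The output of this pathway was read from genes of S phase, of mitosis and of the p53 response. Of these 32 genes, 0 were called (0.526% of all tested genes), 1 (Phlda3) had an unadjusted p below 0.05 (10.5% of all), and the groups did not overlap in 0 (6.05% of all). The log2 fold change was above 0 in 26 and below 0 in 6, with a median of 0.03. Over all tested genes 49.4% were above 0, and these counts are a description with no test. The 12 S phase genes summed to 1217 to 1347 CPM in WT and 1279 to 1348 CPM in the libraries labelled Flox. Their log2 fold changes lay between -0.02 (Mcm3, a helicase subunit) and 0.11 (Cdc6, a loader of that helicase), with a median of 0.03. The 10 mitosis genes summed to 1389 to 1495 CPM in WT and 1412 to 1601 CPM in the libraries labelled Flox. Their log2 fold changes ran from 0.00802 (Plk1, a mitotic kinase) to 0.10 (Cenpf, a kinetochore protein) with a median of 0.04. Both sums overlapped between the groups. With the Y-linked covariate, Mcm5 (0.02), Tyms (0.10) and Cdc6 (0.14) were above 0 among the S phase genes, and the others were below. Of the mitosis genes, Cdk1 (-0.0081), Aurkb (-0.0175) and Plk1 (-0.04) were then below 0, and the others were above. The 10 p53 targets, which share with Cdkn1a a well-known regulator, ranged from -0.08 (Zmat3) to 0.19 (Phlda3, FDR 0.416), with a median of 0.01. Phlda3 passed without WT library 1 (0.30, FDR 0.0333, range 0.0333 to 0.641 over 18 alternatives).

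Promoter windows, from 250 bases before to 50 after an annotated start, were taken from RefSeq (GRCm38.p6), which held 10 windows for 7 of the 10 members. Ccnd1, Ccnd2 and Rb1 had none there. The E-box CACGTG, a motif that MYC family proteins are known to bind, reads the same on both strands. It was found in 7.15% of the 32851 mouse windows, and among the members in those of Cdk4, Cdk6 and Cdkn2c. The Cdk4 window held 4, as did 0.0244% of all windows (8 with 4 or more). The windows are shown, with each E-box in capitals, because they carry the member with the largest difference and the 2 kinase genes, and because Mycn had the lowest FDR of the pathway genes.
Cdk4 (chr10:127063285-127063584, plus strand): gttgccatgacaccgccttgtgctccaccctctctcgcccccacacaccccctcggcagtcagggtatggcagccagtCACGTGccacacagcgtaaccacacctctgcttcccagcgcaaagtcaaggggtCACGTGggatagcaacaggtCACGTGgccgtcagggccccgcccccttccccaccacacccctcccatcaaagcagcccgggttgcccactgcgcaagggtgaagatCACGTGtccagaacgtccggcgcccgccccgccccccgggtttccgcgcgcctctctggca
Cdk6 (chr5:3343643-3343942, plus strand): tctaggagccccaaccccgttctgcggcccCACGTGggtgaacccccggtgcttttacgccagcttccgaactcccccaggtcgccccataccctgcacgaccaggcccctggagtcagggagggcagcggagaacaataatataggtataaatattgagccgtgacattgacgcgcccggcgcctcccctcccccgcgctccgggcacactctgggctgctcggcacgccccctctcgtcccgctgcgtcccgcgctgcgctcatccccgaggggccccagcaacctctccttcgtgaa
Cdkn2c (chr4:109665323-109665622, minus strand): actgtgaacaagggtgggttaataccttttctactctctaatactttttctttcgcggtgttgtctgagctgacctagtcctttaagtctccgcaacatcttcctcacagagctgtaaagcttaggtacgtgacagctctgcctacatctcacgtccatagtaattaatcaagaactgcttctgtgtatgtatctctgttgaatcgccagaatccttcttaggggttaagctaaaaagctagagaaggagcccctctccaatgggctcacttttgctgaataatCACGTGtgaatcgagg
In Cdk4 the E-boxes begin 172, 118, 98 and 11 bases before the start, in Cdk6 the E-box begins 220 bases before it, and in Cdkn2c it begins 34 bases after it, in 1 of the 2 windows of that gene. The E2F motifs TTTCCCGC, TTTGCCGC, TTTGGCGC and TTTCGCGC, searched on both strands, were in 2.26% of all windows and in 0 of the 10 windows of members. The MEIS motif TGACAG was in 19.2% of all windows and in those of Ccnd3 and Cdkn2c. The GC box GGGCGG was in 35.7% of all windows and in those of Ccnd3, Cdk4, Cdkn1a, Cdkn1b and Cdkn2c. A match is a run of letters and not a measured site. Neither Cdk4 (log2 fold change 0.02) nor Mycn (0.20) was called, and a link of Mycn to these E-boxes was not tested.

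The genes whose pattern over the 8 libraries was most like that of Cdkn2c, by Pearson's r of log2 CPM among 12813 genes, were Mtus2 (0.98), Atf3 (0.98) and Pkp2 (0.98). For Ccnd1, the member with the next smallest p, they were Nucb1 (0.97), Mylip (0.97) and Acer2 (0.96). They were picked as the highest of many, and 49 genes for Cdkn2c and 41 for Ccnd1 exceeded 0.9, so the values are a description with no test.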

How the data were processed

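RNA was polyadenylated and libraries were directional, sequenced as single reads. Per the labels, the submitters' processing notes name cutadapt, RSEM 1.3.1 and GRCm38. The authors deposited RSEM expected counts per gene (Ensembl release 91 by the table's name); the aligner and the use of strand are not given in the sources used here. Expected counts were rounded to whole numbers. GENCODE M21 (GRCm38) gave symbols, positions and lengths for 53274 of 53465 identifiers. Genes were filtered with filterByExpr by group (15388 left), scaled with TMM, and compared with edgeR 4.0.16 (glmQLFit, glmQLFTest, two-sided) in R 4.3.3, with group as the only term, all 8 libraries and Benjamini-Hochberg adjustment over all tested genes. SE came from the F statistic, and intervals from the t distribution at 95%. Levels per kilobase are CPM divided by length.

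Alternatives were scaling by total, by upper quartile and by RLE, omitting the filter, a 1 CPM minimum in 4 libraries, DESeq2 1.42.0, limma voom 3.58.1, leaving out each library, the replicate number as a block, the Y-linked level as a covariate, and FDR 0.1. A GC and length correction (lowess, span 0.3), principal transcript lengths and the motifs were added after seeing the data. The fits were tested on simulated data. The edgeR fit recovered 82 of 100 genes set to a log2 fold change of 1 in size, and 61 of 100 set to 0.5. Of its 154 calls, 11 were false. Changes as small as the members' estimates were not simulated. The members and lists were chosen with earlier results of these data known. Named were the members, Nrg1, list genes with FDR below 0.05, the highest and lowest of each list, the 3 most similar genes to the 2 members with the smallest p, and marker genes where needed. Libraries are not said to come from separate litters, so p-values measure the spread between these samples. Python 3.11.15 and matplotlib 3.10.9 were used for tables and figures.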

Additional observations from a re-analysis of the deposited data

Results flagged for a closer look

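Among 94 groups of 4 values examined (the members, Nrg1, the named genes of the pathway, readout and endothelial lists, and the 6 genes most like Cdkn2c or Ccnd1), 3 had 1 value set apart from the rest, and chance gives about 1 in 20, or 4.7. None of the 3 was a member. Mycn had 33.2 CPM in WT library 3 and 37.6 CPM in each of the other WT libraries. E2f4 was at 38.1 CPM in library 4 labelled Flox, against 42.5 to 43.3 CPM in the others of its group. WT library 3 held 202.0 CPM of Mtus2, and the other WT libraries 199.5 to 199.7 CPM, a gap that stands out because those agree closely.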

How the results depend on the processing

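The number of members called was 0 in each direction under every alternative that kept all 8 libraries. At FDR 0.1 it was 0 with the filter on low counts, while with no filter Cdkn2c had an FDR of 0.0888. Leaving out 1 library gave 0 to 1 member higher and 0 lower, the 1 being Cdkn2c without library 4 labelled Flox. The members' log2 fold changes kept their direction in each of the other alternatives, and changed sign in 2 of the fits without 1 library, for Cdk4 without WT library 3 (range over these fits -0.0015 to 0.042) and for Rb1 without library 4 labelled Flox (range -0.11 to 0.0082). The range of Cdkn2c over its alternatives was 0.14 to 0.22, with FDR from 0.0425 to 0.504.

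Over all tested genes, 48 were called higher and 33 lower. No filter gave 154 and 184, DESeq2 103 and 95, FDR 0.1 95 and 95, and the Y-linked covariate 12 and 4. Limma voom gave 30 higher, and correcting for GC and length, which was chosen after seeing the data, gave 28. Leaving out 1 library gave 6 to 61 higher and 5 to 81 lower, with both highest counts without library 4 labelled Flox and the lowest count lower without library 3 labelled Flox; these fits have fewer samples by construction, and the cause of the other shifts was not tested.

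Same-numbered libraries had correlations of 0.0447 to 0.121 in their deviations from the group means, against -0.0877 to 0.0195 for other pairs. As these were not all over 0.1, the libraries were taken to share only a number, although each correlated best with its own. A block for the replicate number gave 51 genes higher and 42 lower, 59 of them among the 81, and 0 members. Members held 361 to 8670 expected counts per library. These libraries cannot tell apart differences of the sizes that lie inside a member's interval.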
